A study of Mus musculus with 6 samples.

Results

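Hepatocytes from livers of embryonic day 16.5 (E16.5) mouse embryos were compared between a Cnot3KO culture and a control culture after 6 h and after 12 h of actinomycin D (ActD), an intercalating drug that blocks transcription. The comparison takes in 4 of the 6 expression arrays of the series, 1 for each genotype at each hour, paired by hour. The 2 arrays made before ActD serve here only as a reference. In the Cnot3KO embryos a Cre recombinase under the albumin promoter deletes a floxed Cnot3 allele, so the deletion is aimed at cells of the hepatic lineage and leaves blood, vessel and stromal cells with the gene. The labels call the controls wild type, whereas the methods of the study allow several control genotypes, some with the floxed allele or with Cre alone. Cells of both genotypes were grown with oncostatin M and dexamethasone, which drive maturation, and RNA was taken at the end of that culture, when the study describes the suppression of Cnot3 as efficient after an incomplete loss in the fetal liver itself. Neither the labels nor the methods say how many embryos fed a culture or whether the arrays of a genotype came from separate cultures.

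Cnot3 is a non-catalytic subunit of the Cnot complex, the main deadenylase of the cytoplasm. Removal of the poly(A) tail by the complex is the usual first step of mRNA decay, and RNA-binding proteins and microRNAs bring the complex to particular mRNAs. Where ActD stops synthesis fully, the level of an mRNA depends on decay alone, and mRNAs of short-lived regulators normally vanish first. Values are probe-set intensities that the authors normalised towards a common distribution. The arrays were close but not equal, with 20th percentiles between 19.7 and 22.4 and medians between 69.7 and 72.4. A value is therefore relative to the other mRNAs of its array, and a loss shared by every mRNA cannot be seen. An mRNA lost more slowly than most appears to gain. Some intensities climbed far, such as that of Tap1 from 142.7 at 0 h to 643.5 at 12 h on the control arrays. How fully ActD blocked synthesis in these cultures was not tested.

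Each of 16451 genes was represented by 1 probe set, and the genotype difference at an hour was taken on the log2 scale as Cnot3KO minus control. A gene is called in excess when it was over 1.5-fold higher in Cnot3KO cells at 6 h and again at 12 h, and short when it was over 1.5-fold lower at both. With 1 array a group these calls carry no test. By this rule 2777 genes, or 16.9% of those measured, were in excess and 845, or 5.14%, were short. With the mean of all probe sets of a gene 2043 of 16148 genes were in excess and 642 short. Without probe sets of shared sequence 2354 of 14817 were in excess and 777 short. Over 2-fold at both hours the counts in the main setting were 1359 and 135, and over 4-fold 96 and 3. The excess thus outnumbered the shortfall more strongly the larger the fold. Only 3 genes passed 1.5-fold in opposite directions at the 2 hours.

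**Figure D1:**
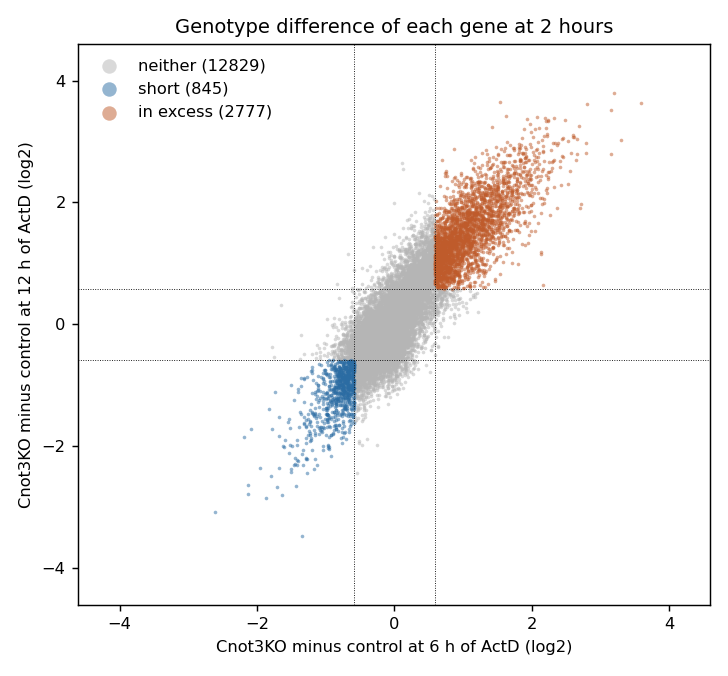
Genotype difference of each of 16451 genes, Cnot3KO minus control (log2), at 6 h of ActD on the horizontal axis and at 12 h on the vertical axis. Dotted lines mark 1.5-fold, and the 2777 genes in excess (orange) spread to larger differences than the 845 short genes (blue).

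The difference widened with time. The median difference of the genes in excess was 0.36 (log2) before ActD, 1.02 at 6 h and 1.49 at 12 h, and the difference was larger at 12 h than at 6 h in 2436 of the 2777. For the short genes the medians were -0.35, -0.77 and -1.04, and the shortfall was larger at 12 h in 695 of the 845. Over all genes the median stayed near 0, at -0.05 at 6 h and -0.03 at 12 h, while the SD of the differences grew from 0.356 before ActD to 0.597 and 0.852. At 12 h alone 4525 genes (27.5%) passed 1.5-fold upward in Cnot3KO cells and 2278 (13.8%) downward. The 2 kinds of call arose differently within the genotypes. Genes in excess lost intensity on the control arrays between 0 and 12 h (median change -1.05, log2) and kept it on the Cnot3KO arrays (0.04). Short genes gained on the control arrays (0.54) and lost little on the Cnot3KO arrays (-0.13).

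With the hour as a block, limma on the 4 arrays called 4002 genes higher (24.3%) and 1807 lower (11.0%) in Cnot3KO cells at an adjusted p below 0.05 (Benjamini-Hochberg). The genes in excess and short are among them by construction, since the smallest mean difference that limma called was 0.52 (log2), below 1.5-fold. This fit has 1 residual degree of freedom, so its p-values measure how well the 2 hours match and say nothing of the spread between embryos. Leaving the hour out of the model lowered the counts to 2454 and 664. A test against 1.5-fold (limma treat) left 1537 and 170. Centring the arrays on Gapdh moved all differences by -0.28 at 12 h (log2), and with it the share of higher genes among the limma calls from 68.9% to 54.2%.

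Most of the excess was not there at that size before ActD. Of the 2777 genes in excess, 749 were over 1.5-fold higher at 0 h, 967 lay within 1.2-fold of control and 14 had been over 1.5-fold lower. Among the 845 short genes 212 were over 1.5-fold lower at 0 h and 296 within 1.2-fold. Read from the other side, 749 of the 1106 genes over 1.5-fold higher at 0 h were in excess at both later hours, against 212 of 481 for the lower ones. A limma fit on all 6 arrays asked whether the genotype difference under ActD departed from that before it. It called 556 genes whose difference shifted towards Cnot3KO (3.38%) and 10 that shifted the other way (0.0608%), of which 546 and 7 were called in excess and short. At an unadjusted p below 0.05 there were 2101 and 461. This test is fragile, because 0 genes passed in either direction once the arrays were centred on ribosomal protein genes (1709 and 267 at an unadjusted p below 0.05) or once the hours entered as a linear term (2108 and 818).

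Cnot3 itself was lower in the Cnot3KO arrays at both hours, but by less than 1.5-fold. Its brighter probe set read 214 and 158 in control and 174 and 146 in Cnot3KO cells at 6 and 12 h, after 296 in control and 174 in Cnot3KO cells before ActD, so on this probe set the gap closed as the control level declined. The difference was -0.30 and -0.11 (log2; limma over both hours, adjusted p = 0.43). On a second probe set the gap opened instead, from 160.4 in control and 155 in Cnot3KO cells before ActD to 211 and 232 in control and 160.5 and 178 in Cnot3KO cells. No position relative to the floxed exons is known here for these probe sets, so Cnot3 does not check the labels under ActD.

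Several partners of Cnot3 were themselves in excess. Cnot4, a RING-type ubiquitin ligase that associates with the complex, read 94.1 and 67.1 in control and 349.7 and 401 in Cnot3KO cells at 6 and 12 h (3.71- and 5.98-fold higher), from nearly equal levels of 799 in control and 826 in Cnot3KO cells before ActD, while its 4 other probe sets ranged from 0.02 to 1.85 (log2, mean of both hours). Cnot2, which pairs with Cnot3 in the complex, read 252 and 205 in control and 873 and 770.2 in Cnot3KO cells (3.47- and 3.75-fold higher), and its 3 other probe sets showed mean differences of 2.28 to 2.96. Cnot11, which joins Cnot10 at the N terminus of the scaffold, was 2.89- and 4.13-fold higher, although its 2 other probe sets lay at -0.09 and 0.02. Cnot6, a deadenylase subunit, went the other way with 2269 and 2182 in control and 1457 and 1298 in Cnot3KO cells (1.56- and 1.68-fold lower), and its 3 other probe sets lay between -1.10 and -0.93. The remaining members passed 1.5-fold at no more than 1 hour. The deadenylases Cnot7 and Cnot8 differed by 0.27 and 0.36 at 6 h and by 1.16 and 1.31 at 12 h (log2), and the other 2 probe sets of Cnot7 lay at -0.22 and -0.06. Of 11 subunits 3 (27.3%) were in excess and 1 was short, against 16.9% and 5.14% of all genes. List medians were 0.27 and 0.85 (log2) at 6 and 12 h. Cnot1, the scaffold, shares its probe sets with other genes and was not measured on its own.

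The rest of the decay machinery held both calls and genes near control. Its counts are to be read against 16.9% in excess and 5.14% short over all genes. Among the other deadenylases, decapping factors and exonucleases 8 of 28 were in excess and 0 short, with medians of 0.28 and 0.72 (log2), but with the mean of all probe sets of a gene 4 were in excess, and without probe sets of shared sequence 5 were in excess and 1 short. Edc3, an enhancer of decapping, read 119 and 85.6 in control and 452 and 475 in Cnot3KO cells (3.81- and 5.54-fold higher). Edc4, the decapping scaffold, was 2.01- and 3.33-fold higher, and the exosome subunit Exosc3 2.27- and 3.56-fold higher. Of 27 proteins that can bring the complex to an mRNA, 7 (25.9%) were in excess and 2 short, with medians of 0.09 and 0.40 (log2). Over both hours their median was 0.30, or 0.12 without probe sets of shared sequence. Btg2, an antiproliferative protein that binds the Cnot7 and Cnot8 deadenylases, read 1851 and 1871 in control and 3430 and 6465 in Cnot3KO cells, and on the Cnot3KO arrays it had climbed from 1555 at 0 h. Pum2, a Pumilio protein that binds short motifs in mRNA, was 2.19- and 3.83-fold higher, and Cpeb2, a cytoplasmic polyadenylation element binding protein, 2.08- and 3.55-fold higher after a lower level at 0 h (642 and 377). Bicc1, an RNA-binding protein that can recruit the complex, was short at 4940 and 3108 in control and 2246 and 1072 in Cnot3KO cells. Among 29 poly(A)-binding and stabilising proteins 9 were in excess and 1 short, led by the poly(A) polymerase Papolg (4.95- and 7.86-fold higher). The medians of this list were 0.12 and 0.50 (log2).

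The mRNAs most in excess did not belong to 1 pathway. Riok2, a kinase needed to mature the small ribosomal subunit, led with 64.3 and 64.5 in control and 773 and 796 in Cnot3KO cells (12.0- and 12.3-fold higher). It started at 338 in control and 694 in Cnot3KO cells at 0 h, so the control arrays lost most of it within 6 h while the Cnot3KO arrays stayed level. Ifrd1, a transcriptional co-regulator induced by growth factors, read 201 and 134 in control and 1841 and 1867 in Cnot3KO cells (9.18- and 13.9-fold), and Cdc73, the parafibromin subunit of the PAF1 elongation complex, 839 and 348 in control and 5832 and 4269 in Cnot3KO cells (6.95- and 12.3-fold). All 3 were already over 2-fold higher at 0 h. Cwc22, a spliceosomal factor that loads the exon junction complex, was 8.85- and 11.4-fold higher, but its control values of 27.1 and 23.1 lay close to the 20th percentile of the arrays (22.4 on the control array at 12 h). Ythdc2, an RNA helicase that reads methylated adenosine, was 6.43- and 9.57-fold higher. Phf3 was 5.57- and 10.2-fold higher, Mphosph8, a reader of silent chromatin, 6.08- and 8.41-fold, and Terf1, which coats telomeres, 6.05- and 8.63-fold. Nup37, a subunit of the nuclear pore, read 253 and 124 in control and 1545 and 1044 in Cnot3KO cells (6.11- and 8.44-fold). The desmosomal plakophilin Pkp2 read 698 and 232 in control and 3174 and 2437 in Cnot3KO cells (4.55- and 10.5-fold), and the transcriptional repressor Hic2 89.9 and 53.4 in control and 425 and 546 in Cnot3KO cells (4.73- and 10.2-fold). Ifit1, which binds foreign RNA after interferon, Kif20b, Srfbp1 and Ttc30b completed the 15, with folds between 6.34 and 9.81. The other probe sets of a gene had to match its sign on average, though not each of them. Ahr would rank among the 15 by its mean difference and was left out because its only other probe set had the opposite sign. In all 15 the 2 Cnot3KO values lay above both control values, which follows largely from the choice of genes by their difference. Other probe sets of the same gene did not always show an excess, with mean differences (log2) from -0.15 to 1.30 for Cdc73, from -0.20 to 2.59 for Phf3 and from -0.44 to 1.53 for Terf1.

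**Figure D2:**
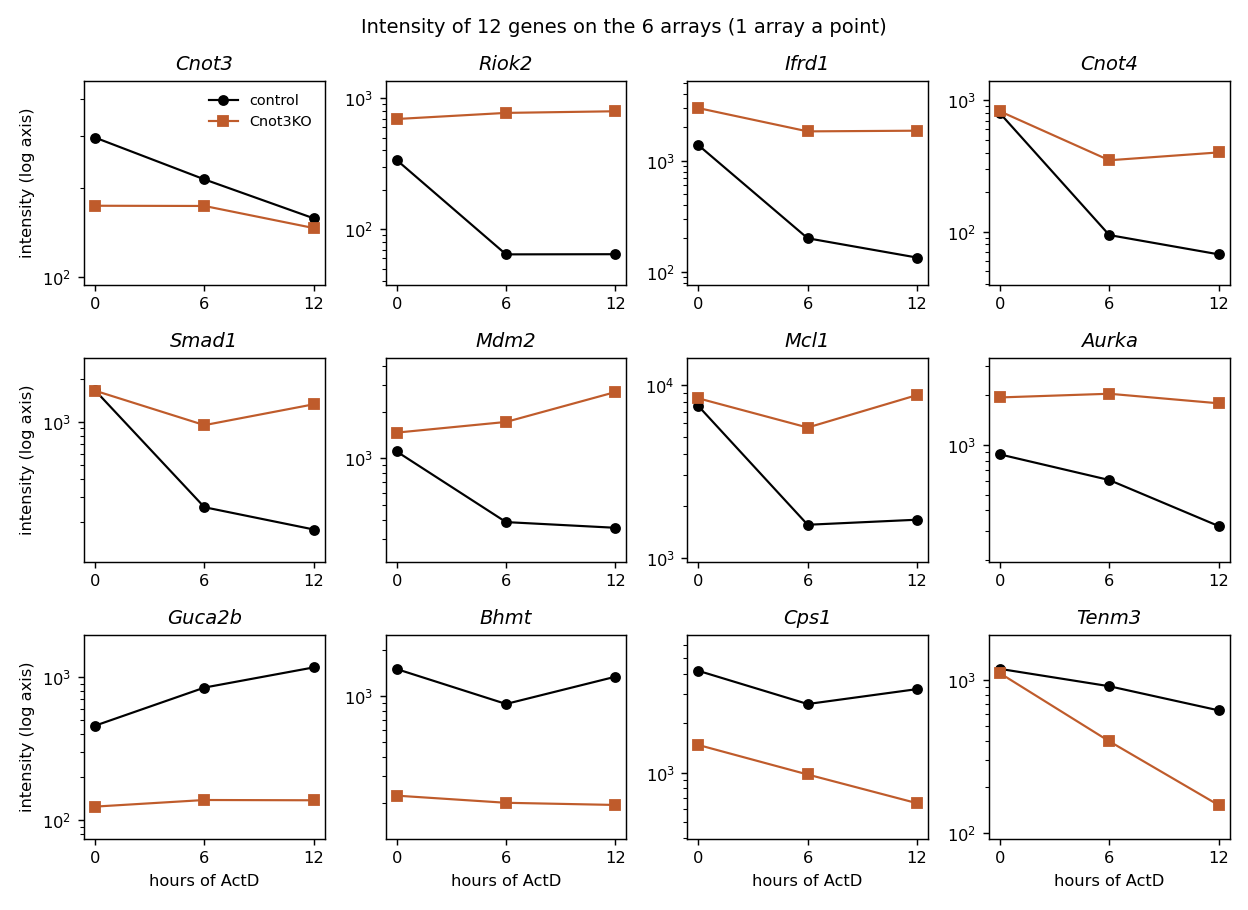
Intensity (log axis) of 12 named genes at 0, 6 and 12 h of ActD, with 1 array a point, control in black circles and Cnot3KO in orange squares. Riok2, Ifrd1, Cnot4, Smad1, Mdm2 and Mcl1 decline on the control arrays and not, or less, on the Cnot3KO arrays, while Guca2b, Bhmt and Cps1 are low from 0 h and Tenm3 declines faster in Cnot3KO cells.

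A further set was in excess from levels within 1.2-fold of control at 0 h. Smad1, which carries signals from BMP receptors to the nucleus, started at 1662 in control and 1652 in Cnot3KO cells and read 254 and 178 in control and 949.9 and 1328 in Cnot3KO cells at 6 and 12 h (3.74- and 7.48-fold higher), and its 2 other probe sets had mean differences of 2.04 and 2.39 (log2). Dusp16, a phosphatase of the stress kinases, went on the control arrays from 2214 at 0 h to 174 and 114, against 816 and 1161 on the Cnot3KO arrays (4.69- and 10.2-fold higher). Zmym2, a subunit of a histone deacetylase complex, started at 967 in control and 964 in Cnot3KO cells and read 109.6 and 97.9 in control and 403 and 688 in Cnot3KO cells. The kinesin Kif2a was 4.49- and 7.22-fold higher, the splicing factor Prpf38b 4.93- and 6.42-fold, the Polycomb ubiquitin ligase Rnf2 4.54- and 6.39-fold, and Susd6 3.77- and 7.33-fold. Frmd4b, Prps1l3 and the zinc finger gene Zfp958 completed the 10. The size depended on the probe set, since the others of Frmd4b had mean differences from -0.15 to 2.78 (log2), those of Kif2a from -0.06 to 1.30, those of Prpf38b from 0.08 to 2.34 and those of Rnf2 from -0.34 to 2.39.

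The mRNAs most short included liver enzymes and carriers beside receptors and a contractile kinase, and all 15 were already over 1.5-fold lower at 0 h. Guca2b, the peptide uroguanylin, read 846 and 1171 in control and 139 and 138 in Cnot3KO cells (6.10- and 8.47-fold lower). Bhmt, which remethylates homocysteine with betaine, read 889.7 and 1339 in control and 202 and 196 in Cnot3KO cells (4.40- and 6.85-fold lower), Dpyd, the first enzyme of pyrimidine breakdown, 320.3 and 564 in control and 126 and 50.9 in Cnot3KO cells, and Slc2a2, the glucose transporter GLUT2, 4557 and 4374 in control and 1311 and 779.7 in Cnot3KO cells. In each of these the 2 Cnot3KO values lay below both control values, which again follows largely from the choice of genes. Uox, the urate oxidase, was 2.83- and 5.35-fold lower, Azgp1, a secreted lipid-mobilising glycoprotein, 2.85- and 5.21-fold, and Cyp2j5, a hepatic and renal cytochrome P450, 4.56- and 3.61-fold. Slc30a10, a manganese exporter, was 4.27- and 3.29-fold lower. Mylk, the myosin light chain kinase of contractile cells, read 867 and 684 in control and 224 and 133 in Cnot3KO cells, and Ptprd, a receptor tyrosine phosphatase, 322 and 252 in control and 98.6 and 39.8 in Cnot3KO cells. Msi2, an RNA-binding protein of progenitor cells, read 747 and 666 in control and 278 and 106 in Cnot3KO cells, Cltrn, a relative of the angiotensin-converting enzyme family, 1284 and 2983 in control and 352 and 415 in Cnot3KO cells, and Atrnl1, Atxn7l1 and ccdc198 completed the 15.

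Other genes were short from levels within 1.2-fold of control at 0 h. Tenm3, a teneurin of cell adhesion, started at 1188 in control and 1113 in Cnot3KO cells and read 914 and 635 in control and 398 and 152 in Cnot3KO cells (2.30- and 4.18-fold lower). Lrp8, a receptor of the LDL receptor family, read 562 and 551 in control and 243 and 148 in Cnot3KO cells, and Bmper, a secreted modulator of BMP signals, 208 and 99.2 in control and 88.4 and 33.0 in Cnot3KO cells. Ptprg, a receptor tyrosine phosphatase, was 1.89- and 3.53-fold lower, the kinase Nek7 1.92- and 3.21-fold, and Msra, which repairs oxidised methionine, 2.14- and 3.46-fold. Lrp8, Ptprg, Nek7 and Msra gained on the control arrays and lost on the Cnot3KO arrays, whereas Tenm3 declined on both, and further in Cnot3KO cells. H3f3b, which encodes the replacement histone H3.3, rested on a probe set that climbed from 115 to 629 and 730 on the control arrays and read 228 and 147 on the Cnot3KO arrays. The contractile light chain Myl9, the collagenase Mmp13 and the endothelial sialomucin Emcn were the remaining 3. Emcn, Myl9 and Mmp13 are typical of vessel or stromal cells, whose marker lists were lower on the Cnot3KO arrays as well.

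Some genotype differences were gone under ActD. Of the 1106 genes over 1.5-fold higher and the 481 over 1.5-fold lower at 0 h, 43 and 33 lay within 1.2-fold of control at both later hours. Choosing genes by a difference on 1 array a genotype favours a smaller difference later. Eno3, the muscle enolase, was 2.13-fold higher at 0 h and then read 660.5 and 684 in control and 732 and 693 in Cnot3KO cells. Cirbp, a cold-inducible RNA-binding protein, read 244 in control and 418 in Cnot3KO cells at 0 h and 552 and 763 in control and 622 and 694 in Cnot3KO cells afterwards. B4galnt2, Snx9 and Cldn18 behaved likewise. The other probe set of Snx9, however, had a mean difference under ActD of 0.63 (log2), and the 3 of B4galnt2 ranged from -0.55 to -0.11. Npas2, a clock transcription factor, was 3.04-fold lower at 0 h, after which both genotypes lost it to 31.8 and 21.4 in control and 26.9 and 22.5 in Cnot3KO cells. Its 12 h values lay close to the 20th percentile of the arrays (22.4 in control and 20.2 in Cnot3KO cells). Cpn2, a plasma carboxypeptidase subunit, was 1.95-fold lower at 0 h and then read 414 and 276 in control and 359 and 245 in Cnot3KO cells, and S1pr1, Gm4432 and 9530077C05Rik were the others.

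**Figure D3:**
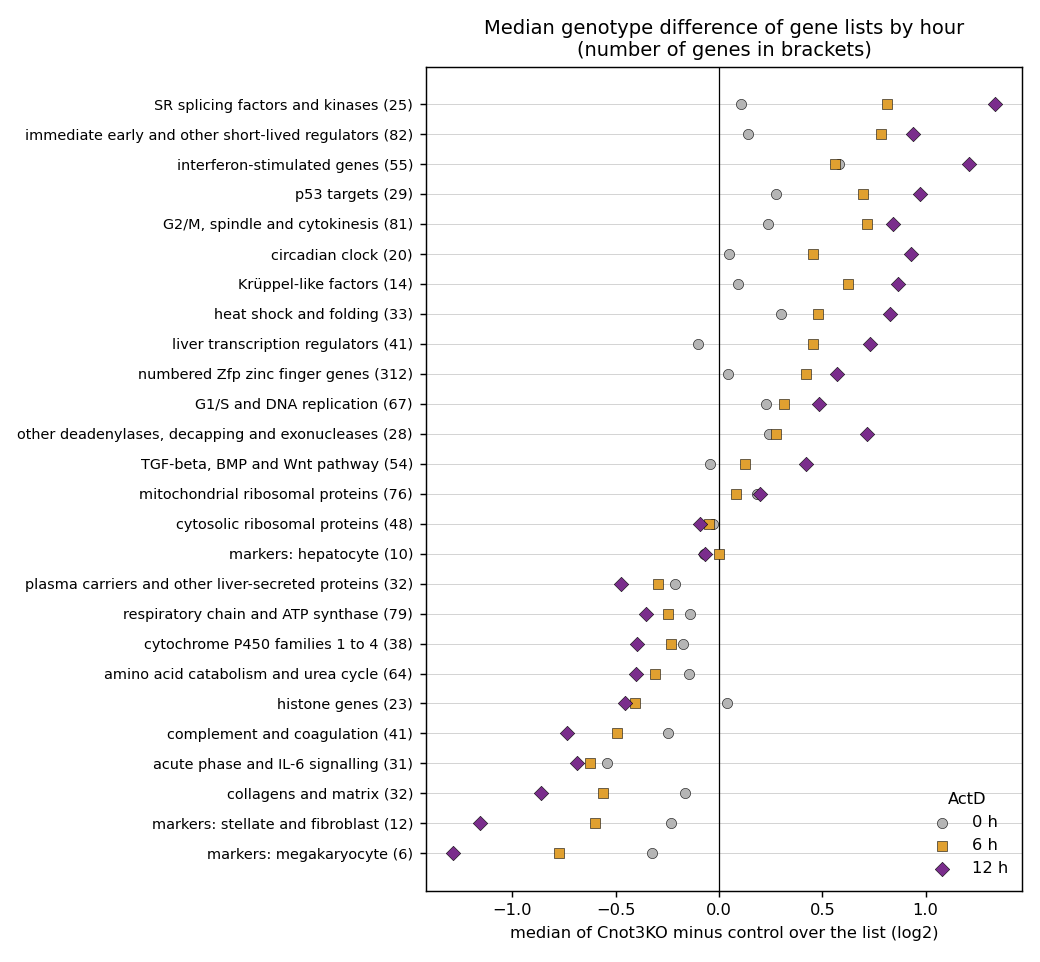
Median of the genotype difference, Cnot3KO minus control (log2), over the members of 26 gene lists at 0 h (grey circles), 6 h (yellow squares) and 12 h (purple diamonds) of ActD, with the number of genes in brackets. Lists of regulators, splicing factors and cell-cycle genes lie further to the right under ActD than at 0 h, and lists of secreted proteins, collagens and non-hepatic markers lie to the left.

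Gene lists are described by their calls, to be read against 16.9% in excess and 5.14% short over all genes, and by their medians at 6 and 12 h, to be read against -0.05 and -0.03. Counts with the mean of all probe sets, or without those of shared sequence, are to be read against their own totals, given above. Regulators that cells switch on and off quickly were often in excess. Of 82 immediate early and other short-lived regulators 47 were in excess and 0 short, with medians of 0.79 and 0.94 (log2), whereas at 0 h 14 were over 1.5-fold higher and the median was 0.14. Mcl1, a survival protein of the Bcl2 family, read 1553 and 1661 in control and 5668 and 8736 in Cnot3KO cells (3.65- and 5.26-fold higher) from 7556 in control and 8368 in Cnot3KO cells at 0 h. Dusp14, a phosphatase of MAP kinases, was 5.07- and 7.89-fold higher and Dusp4, another, 3.31- and 7.39-fold. Of 14 Krüppel-like factors 7 were in excess and 1 short, among them Klf16 at 149.7 and 111 in control and 317 and 399 in Cnot3KO cells and Klf4 at 179 and 274 in control and 434 and 510.1 in Cnot3KO cells. Of 20 circadian clock genes 7 were in excess and 0 short, including the repressors Nr1d2 (3.45- and 5.08-fold) and Bhlhe40 (3.17- and 4.49-fold). Summed over the 82 regulators, the control arrays went from 88700 at 0 h to 40430 and 46980, and the Cnot3KO arrays from 105300 to 87280 and 113000. Klf4 was an exception, since its control level did not decline.

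Transcription factors of the liver were likewise often in excess. Of 41 liver transcription regulators 18 were in excess and 2 short, with medians of 0.45 and 0.73 (log2) after -0.10 at 0 h. Foxa3, a pioneer factor of hepatic genes, read 280.4 and 219 in control and 1252 and 1566 in Cnot3KO cells (4.46- and 7.14-fold higher), and Gata6, a GATA factor of endoderm, 174 and 130.3 in control and 616 and 859 in Cnot3KO cells (3.54- and 6.59-fold). Cebpg, a leucine zipper factor, was 3.98- and 3.89-fold higher from almost equal levels at 0 h. Ahr, the receptor for dioxin and related ligands, read 182 and 140.0 in control and 915 and 1466 in Cnot3KO cells (5.02- and 10.5-fold), but its other probe set differed by -0.12 on average, so its excess rests on 1 probe set. Nr1h4, the bile acid receptor FXR, read 89.1 and 64.4 in control and 219 and 264 in Cnot3KO cells. Of 54 genes of the TGF-beta, BMP and Wnt pathways 17 were in excess and 4 short, with medians of 0.13 and 0.42. Here the signal transducers led, with Smad2 4.29- and 6.99-fold higher and Smad4, the partner shared by both branches, 3.75- and 5.08-fold higher beside Smad1, and the ligand Bmp2 was 3.28- and 3.64-fold higher. Of 312 numbered Zfp zinc finger genes 113 were in excess and 2 short, with medians of 0.42 and 0.57, and Zfp655 (5.20- and 7.84-fold) and Zfp644 (4.20- and 6.00-fold) were among the highest. Of 35 genes of NF-kB feedback and chemokines 10 were in excess and 0 short, led by Bcl3, an atypical inhibitor of NF-kB, at 181 and 113 in control and 413 and 399.6 in Cnot3KO cells, Nfkbiz (2.77- and 2.83-fold) and Birc2 (2.25- and 3.45-fold), and with the mean of all probe sets 6 were in excess. In the same setting 2 genes of the TGF-beta, BMP and Wnt list were short.

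Splicing factors rich in serine and arginine were often in excess. Of 25 such factors and their kinases 16 were in excess and 0 short, with medians of 0.81 and 1.34 (log2) after 0.10 at 0 h. Without probe sets of shared sequence 10 were in excess, and the median over both hours went from 1.14 to 0.75. Clk1, a kinase that phosphorylates them, read 529.6 and 482 in control and 1736 and 2110 in Cnot3KO cells (3.28- and 4.37-fold higher), Luc7l3 877 and 661 in control and 2443 and 2729 in Cnot3KO cells (2.79- and 4.13-fold), and Srsf4 was 3.15- and 3.52-fold higher. In nonsense-mediated decay 5 of 13 factors were in excess and 0 short, but the medians of -0.18 and 0.06 lay near 0, and without probe sets of shared sequence 3 were in excess. Translation initiation factors had 13 of 47 in excess and 1 short, led by Eif1a, a scanning factor, at 422 and 459 in control and 1413 and 2235 in Cnot3KO cells (3.35- and 4.87-fold higher), and 8 were in excess either with the mean of all probe sets or without those of shared sequence. Of 33 genes of heat shock and folding 14 were in excess and 1 short, with medians of 0.48 and 0.83, and with the mean of all probe sets the median over both hours went from 0.65 to 0.31. Dnajb1, the stress-inducible Hsp40, read 1082 and 1103 in control and 3273 and 4293 in Cnot3KO cells and was already 2.62-fold higher at 0 h, while Hsf2, a heat shock factor, was 4.67- and 8.55-fold higher.

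Many cell-cycle mRNAs were in excess. Of 81 genes of G2/M, spindle and cytokinesis 41 were in excess and 0 short, with medians of 0.72 and 0.84 (log2) after 0.24 at 0 h. Aurka, the Aurora kinase of the centrosome, read 612 and 322 in control and 2046 and 1790 in Cnot3KO cells (3.34- and 5.57-fold higher), and Ect2, an exchange factor that starts cytokinesis, 585 and 222 in control and 1663 and 1057 in Cnot3KO cells (2.84- and 4.76-fold). The motor Kif18a was 3.44- and 4.06-fold higher. Of 67 genes of G1/S and DNA replication 23 were in excess and 3 short, with medians of 0.31 and 0.48. With the mean of all probe sets 14 of them were in excess, and the median over both hours went from 0.41 to 0.19. E2f7, an atypical E2F repressor, read 196 and 145 in control and 524 and 502 in Cnot3KO cells, and Exo1, an exonuclease of mismatch repair, 100.3 and 74.7 in control and 291 and 224 in Cnot3KO cells. Among 8 cell-cycle genes that the study followed, 4 were in excess, namely Brca1, Cdc25b, Cdt1 and Ect2, and this choice of genes is not independent of the study's own data. Without probe sets of shared sequence 2 were in excess, and the other probe sets of Brca1 lay between -0.22 and 0.58 (log2). Cdt1, a licensing factor of replication origins, read 1614 and 1684 in control and 4370 and 3762 in Cnot3KO cells. Cdc25a passed at 12 h only (0.47 and 0.89, log2), Chek1 at 6 h only (0.62 and 0.33), and Kif23 and Iqgap1 at neither hour.

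Targets of p53 were often in excess as well. Of 29 targets 16 were in excess and 0 short, with medians of 0.69 and 0.97 (log2) after 0.28 at 0 h. Mdm2, the ubiquitin ligase that limits p53, read 386 and 354 in control and 1723 and 2695 in Cnot3KO cells (4.47- and 7.61-fold higher), and on the Cnot3KO arrays it climbed from 1469 at 0 h. Plk2, a Polo-like kinase, read 1294 and 1749 in control and 4125 and 6185 in Cnot3KO cells, and Eda2r, a TNF receptor, 94.7 and 155 in control and 342 and 388 in Cnot3KO cells. The translesion polymerase Polk was 2.35- and 3.60-fold higher. Among 18 genes of the Bcl2 family 4 (22.2%) were in excess, against 16.9% over all genes, and 0 short. The family's medians of -0.11 and 0.10 (log2) lay near 0. Its median over both hours was -0.076, or 0.040 with the mean of all probe sets. Bbc3 (Puma), a p53-induced killer, read 181 and 241 in control and 521 and 618 in Cnot3KO cells, and Bid, a BH3-only protein, 166 and 127 in control and 414 and 702 in Cnot3KO cells.

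Interferon-stimulated mRNAs were often higher at 0 h already. Of 55 members 27 were over 1.5-fold higher at 0 h and 26 were in excess, with 0 short and medians of 0.56 and 1.21 (log2) after 0.58 at 0 h. Xaf1, a pro-apoptotic factor, read 106 and 167 in control and 411 and 942 in Cnot3KO cells (3.88- and 5.64-fold higher), Rtp4 190.0 and 208 in control and 609 and 1216 in Cnot3KO cells (3.20- and 5.85-fold), and Parp14, an ADP-ribosyltransferase, 104 and 81.0 in control and 240.5 and 484 in Cnot3KO cells. All 3 gained on the Cnot3KO arrays between 6 and 12 h. In class I antigen processing 3 of 17 were in excess and 0 short, close to the share over all genes, and the median was 0.46 at 0 h and 0.23 and 0.12 afterwards. With Gapdh centring 1 was in excess, and without probe sets of shared sequence the median over both hours was -0.07. Of the 4 immune genes that the study followed, Irf7, the master regulator of interferon genes, read 123 and 147 in control and 212 and 398 in Cnot3KO cells, and Cxcl10, a chemokine, 853 and 915 in control and 1395 and 1819 in Cnot3KO cells, after a lower level at 0 h (1719 and 1172). Herc6 passed at 6 h only, although its 3 other probe sets had mean differences of 0.80 to 1.92 (log2), and Nlrc5 differed by -0.35 and -0.25 (log2) at intensities between 45.9 and 70.2.

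Many mRNAs of proteins that liver secretes were short. Of 31 genes of the acute phase and IL-6 signalling 14 were short and 2 in excess, with medians of -0.62 and -0.69 (log2) after -0.54 at 0 h. Lbp, which binds lipopolysaccharide, read 2655 and 3902 in control and 991 and 1054 in Cnot3KO cells (2.68- and 3.70-fold lower), Itih3, an inter-alpha-trypsin inhibitor chain, 4653 and 6145 in control and 1913 and 1910 in Cnot3KO cells (2.43- and 3.22-fold), and Orm1, an orosomucoid, 316 and 557 in control and 119 and 119 in Cnot3KO cells. Of 41 complement and coagulation genes 15 were short and 0 in excess, with medians of -0.49 and -0.74. C8a, a subunit of the membrane attack complex, read 221 and 305 in control and 99.1 and 66.4 in Cnot3KO cells, and the factors F9 and F13b were 1.84- and 2.72-fold and 1.64- and 3.40-fold lower at 6 and 12 h. Of 32 plasma carriers and other secreted proteins 11 were short and 2 in excess, including Lect2 at 2024 and 2741 in control and 828 and 757 in Cnot3KO cells and Fgl1 at 719.8 and 1529 in control and 324 and 443 in Cnot3KO cells, and without probe sets of shared sequence 6 were short. On the control arrays the named genes were at least as bright at 12 h as at 0 h, except C8a (311 and 305). Alb, Ttr and Afp, picked as very bright liver mRNAs after their values were seen, showed no such gap on their brightest probe sets. Alb read 33710 and 35070 in control and 33650 and 34980 in Cnot3KO cells, Ttr 29850 and 33310 in control and 31570 and 32480 in Cnot3KO cells and the fetal protein Afp 31700 and 32970 in control and 32440 and 33800 in Cnot3KO cells, all within 1.2-fold and at or close to the highest intensity of each array, and whether such probe sets are saturated was not tested. The 4 other probe sets of Afp were lower in Cnot3KO cells, with mean differences of -0.63 to -0.05 (log2). Of 10 hepatocyte markers 1, Ahsg, was short and 0 were in excess.

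Enzymes of liver metabolism were short in part. Of 64 genes of amino acid catabolism and the urea cycle 15 were short and 2 in excess, with medians of -0.31 and -0.40 (log2). Cps1, the first enzyme of the urea cycle, read 2609 and 3215 in control and 973 and 651 in Cnot3KO cells (2.68- and 4.94-fold lower), and Pipox, a sarcosine oxidase, 692 and 1203 in control and 349 and 373 in Cnot3KO cells. Nags, whose product activates Cps1, went the other way at 139 and 98.8 in control and 399 and 376 in Cnot3KO cells (2.86- and 3.80-fold higher). In glucose metabolism 5 of 31 were short and 2 in excess. Pcx, the pyruvate carboxylase, read 1064 and 1229 in control and 454 and 358 in Cnot3KO cells, and G6pc, the glucose-6-phosphatase, 75.0 and 58.2 in control and 29.0 and 21.6 in Cnot3KO cells, where a gap of 10.2-fold at 0 h had narrowed to 2.59- and 2.69-fold as the control level went down from 334. The Cnot3KO values of G6pc lay near the 20th percentile of their arrays (19.9 and 20.2). Pfkfb3, which raises glycolytic flux, read 113 and 66.2 in control and 262 and 309.6 in Cnot3KO cells, although its other probe set had the opposite sign. Of 38 cytochromes P450 of families 1 to 4, 5 were short and 3 in excess, with medians of -0.23 and -0.40, and without probe sets of shared sequence 3 were short. In conjugating enzymes 8 of 54 were short and 4 in excess, led by the sulfotransferase Sult1a1 at 6848 and 7627 in control and 2380 and 2349 in Cnot3KO cells (2.88- and 3.25-fold lower). The bile acid importer Slc10a1 read 426 and 342 in control and 133 and 119.8 in Cnot3KO cells. Among 11 liver-function genes that the study followed 3 were short, namely G6pc, Pcca and Proz, and Aldh2, Ces2a, Klkb1 and Sod2 were over 1.5-fold lower at 12 h only. Hamp, the iron hormone hepcidin, was counted in this list, although the study reports its mRNA as raised in young livers without Cnot3. Here Hamp was over 1.5-fold higher at 12 h only (0.56 and 1.25, log2). With the mean of all probe sets 1 of the 11 was short.

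Calls among lipid genes went both ways. Of 42 genes of lipogenesis and lipid storage 8 were in excess and 5 short. Of 22 genes of cholesterol synthesis 4 were in excess and 0 short, or 2 in excess without probe sets of shared sequence. The shares in excess, 19.0% and 18.2%, were close to that over all genes. Medians at 6 and 12 h were -0.095 and -0.07 (log2) for the first list and -0.036 and -0.023 for the second. Gpam, the acyltransferase that starts triglyceride synthesis, read 1770 and 798 in control and 3879 and 4064 in Cnot3KO cells (2.19- and 5.09-fold higher), G0s2, an inhibitor of lipolysis, 126 and 112 in control and 791 and 723 in Cnot3KO cells (6.26- and 6.46-fold), and Sqle, the squalene epoxidase, 2011 and 841 in control and 4021 and 4235 in Cnot3KO cells. Hsd17b13, a lipid droplet protein, was short at 874 and 1743 in control and 322 and 356 in Cnot3KO cells. Of 31 genes of fatty acid oxidation 3 were short and 1 in excess, or 5 short with the mean of all probe sets. The excess member was Ppargc1a, the co-activator PGC-1alpha, at 65.9 and 41.5 in control and 150.2 and 161 in Cnot3KO cells, and the enzymes Hsd17b4 and Eci2 were 1.68- and 2.12-fold and 1.52- and 1.62-fold lower at 6 and 12 h.

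Cytosolic ribosomal protein and respiratory chain genes were seldom in excess. Of 48 cytosolic ribosomal protein genes 1 was in excess and 1 short, with medians of -0.05 and -0.09 (log2), and of 79 genes of the respiratory chain and ATP synthase 2 were in excess and 5 short (-0.25 and -0.35). Constitutive proteasome subunits had 5 of 33 in excess and 0 short (0.13 and 0.29), or 3 in excess with the mean of all probe sets, and aminoacyl-tRNA synthetases 1 of 19 and 0 (-0.04 and -0.03). Mitochondrial ribosomal proteins had 16 of 76 in excess and 3 short, with Mrpl1 at 125 and 66.7 in control and 444 and 370.4 in Cnot3KO cells and Mrpl47 at 684 and 543 in control and 1979 and 2055 in Cnot3KO cells, although their other probe sets lay between -0.12 and 0.19 (log2). With the mean of all probe sets 9 of these were in excess and 1 short, and the median over both hours went from 0.14 to -0.01. Of 23 histone genes 5 were short and 0 in excess. H3c7, a replication-dependent histone whose mRNA normally ends without a poly(A) tail, read 325 and 456 in control and 167 and 162 in Cnot3KO cells, and its level climbed on the control arrays from 121 at 0 h.

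Many markers of stromal, vessel and blood cells were lower on the Cnot3KO arrays, and in such bulk samples fewer cells of a type cannot be told apart from less mRNA per cell. Of 12 stellate cell and fibroblast markers 6 were short and 0 in excess, and their summed intensity was 22220 and 23390 in control against 14400 and 11270 in Cnot3KO cells at 6 and 12 h, after 19730 and 16030 at 0 h. Pdgfrb, the PDGF receptor of stellate cells, read 206 and 80.0 in control and 79.0 and 24.8 in Cnot3KO cells. Of 32 collagens and matrix genes 13 were short and 0 in excess, with medians of -0.56 and -0.86 (log2). Col1a1, a chain of collagen I, read 1167 and 1416 in control and 628 and 494 in Cnot3KO cells, and Lox, which crosslinks collagen, 961 and 1205 in control and 531 and 377 in Cnot3KO cells. Of 6 megakaryocyte markers 5 were short and 0 in excess (summed 6506 and 7348 against 3824 and 3356), of 15 macrophage markers 7 and 0 (25840 and 23450 against 18560 and 20390), and of 13 endothelial markers 4 and 0 (2688 and 1527 against 1403 and 1072). The endothelial count was 2 without probe sets of shared sequence and 7 with Gapdh centring. At 0 h 0 megakaryocyte, 6 macrophage and 3 endothelial markers were already over 1.5-fold lower. Mrc1, the mannose receptor of macrophages, read 901 and 656 in control and 320.0 and 165 in Cnot3KO cells, the platelet chemokine Ppbp 2464 and 2723 in control and 1392 and 1010 in Cnot3KO cells, and Lyve1, of sinusoidal endothelium, 368 and 88.6 in control and 120.4 and 22.1 in Cnot3KO cells. Leukocyte markers had 1 of 10 short, erythroid markers 0 of 6 and mesothelial markers 2 of 5, and none of these lists had a member in excess. Cholangiocyte markers had 4 of 9 in excess and 1 short (summed 23940 and 23330 against 36060 and 43940), led by the claudins Cldn4 (3.05- and 5.14-fold higher) and Cldn7 (2.76- and 4.34-fold), while Epcam and Sox9, picked after their values were seen as defining markers, differed by less than 1.5-fold at both hours. Of the 9 cholangiocyte markers 5 were over 1.5-fold higher and 1 lower already at 0 h (summed 20570 in control and 37640 in Cnot3KO cells). Their median was 0.669 at 0 h and 0.131 and 0.325 (log2) afterwards. Of 37 keratins, claudins and adhesion genes 13 were in excess and 3 short, after 16 higher and 3 lower at 0 h. The part of cell composition in the genes short under ActD was not tested.

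mRNAs that the control cells lost early were mostly over 1.5-fold higher in Cnot3KO cells at 12 h. To keep the measures on separate arrays, the change from 0 to 6 h on the control arrays was set against the genotype difference at 12 h, over 11812 genes with a mean intensity above the array medians. Of the 308 genes that lost over 4-fold, 296 (96.1%) were over 1.5-fold higher in Cnot3KO cells at 12 h and 1 was over 1.5-fold lower, with a median difference of 2.09 (log2) after 0.09 at 0 h. The share higher was 88.2% of the 1084 genes that lost 2- to 4-fold and 73.4% of the 1284 that lost 1.41- to 2-fold, against 35.5% of all genes in this comparison. It was 9.16% of the 142 genes that gained over 2-fold, of which 48.6% were over 1.5-fold lower. The same classes made from the Cnot3KO arrays held far fewer mRNAs that were lost quickly, with 29 that lost over 4-fold, and among these 72.4% were over 1.5-fold higher at 12 h. The control arrays at 6 and 12 h were alike (Spearman rho over probe sets 0.983), so a low control value at 6 h carries over into the 12 h difference. A high share in the classes of early control loss is thus partly built in. The arrays of 1 genotype may share a culture, and array normalisation ties a loss of some mRNAs to an apparent gain of others. These shares are therefore given without a test.

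**Figure D4:**
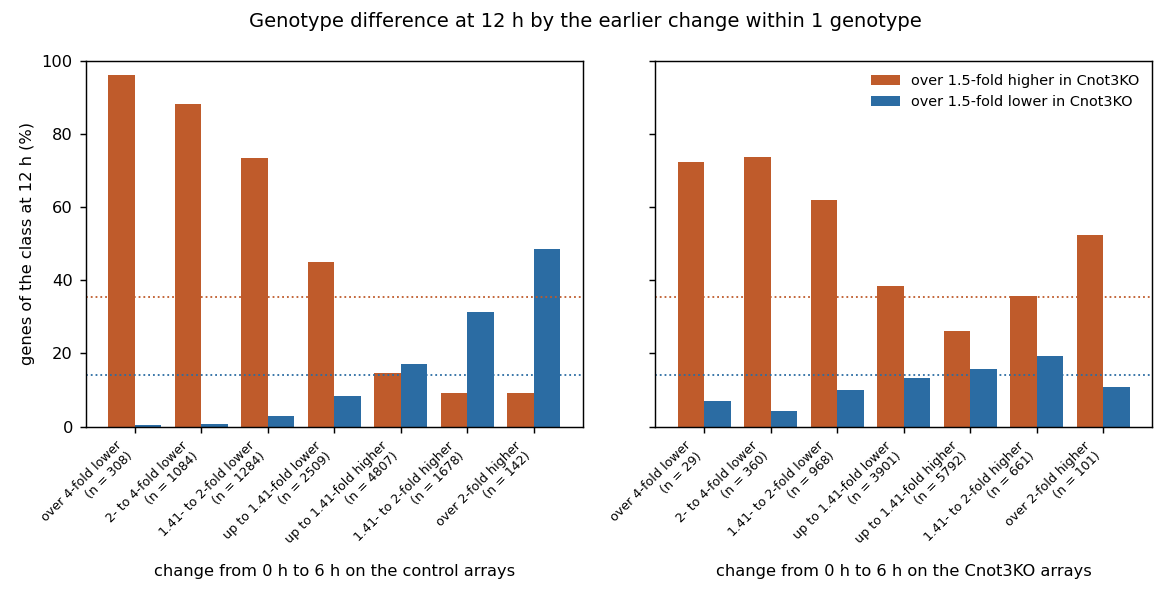
Percentage of genes over 1.5-fold higher (orange) or lower (blue) in Cnot3KO cells at 12 h of ActD, by the change from 0 to 6 h on the control arrays (left) or on the Cnot3KO arrays (right), with the number of genes in each class. Dotted lines give the shares over all 11812 genes (35.5% and 14.2%), and on the left the share higher declines from 96.1% to 9.16% as the share lower climbs to 48.6%.

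Short genes tended to span long loci. In the RefSeq annotation of GRCm38.p6 the median locus was 34.2 kb for short genes, 23.6 kb for genes in excess and 19.2 kb for the rest. Among genes with a mean intensity above the array medians, the share short was 5.38% below 5 kb, 9.69% between 80 and 160 kb, 17.0% between 160 and 320 kb and 20.9% above 320 kb (39 of 187), or 12.3% above 320 kb with genes of any brightness. The share in excess was highest between 20 and 40 kb, at 25.7%, and lowest above 320 kb, at 9.09%. At 0 h the median difference above 320 kb was -0.06 (log2), against -0.30 at 6 h and -0.33 at 12 h. Several of the most short genes named above lie in loci of this kind, among them Dpyd (871 kb), Ptprd (2271 kb), Tenm3 (1297 kb) and Msi2 (379 kb).

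**Figure D5:**
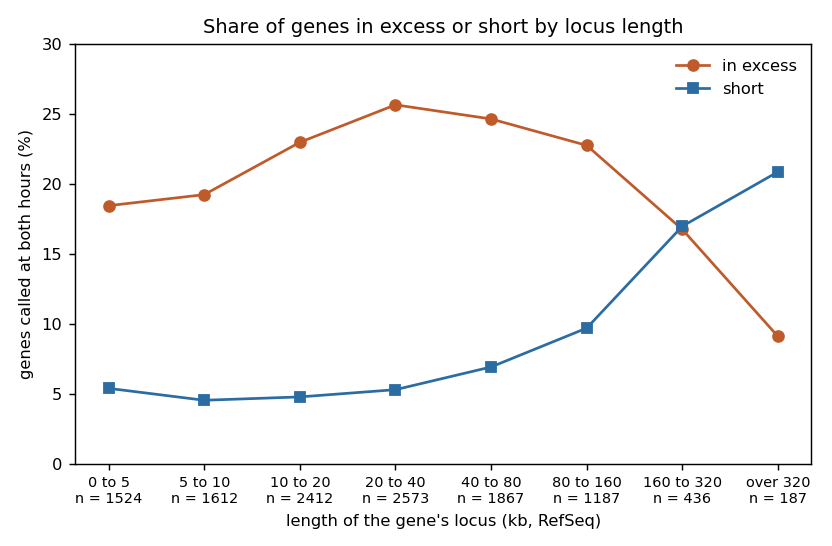
Percentage of genes in excess (orange circles) or short (blue squares) at both hours, by the length of the gene's locus in kb, with the number of genes in each class. The share short climbs to 20.9% above 320 kb, where the share in excess is lowest at 9.09%.

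A second probe set of the same gene offers a check of the measurement on the same arrays. Over 4226 genes with 2 probe sets above the medians of the 4 arrays, the SD between probe sets was 0.342 (log2) for the difference at 6 h and 0.504 at 12 h. Of 1622 genes in excess with a second probe set above the filter, 1142 had the same sign at both hours on it and 675 (41.6%) were over 1.5-fold higher at both, against 12.6% of second probe sets over all 7803 genes with one. For 479 short genes the corresponding counts were 411 and 209 (43.6%, against 6.40%). Among genes named as in excess, the other probe set of Dusp16 had a mean difference of 0.33, that of Hsf2 0.12, that of Nr1d2 0.12, that of Plk2 0.26 and that of Xaf1 0.08, and the 2 others of Nfkbiz -0.27 and 0.34 (log2). Among genes named as short, mean differences of the other probe set were -0.385 for Hsd17b13, -0.137 for Pcca and -0.398 for Pdgfrb (log2). The others of Msi2 ranged from -1.996 to -0.232 and those of Mylk from -2.213 to -0.427. Those of Lrp8 ranged from -0.925 to -0.341 and those of Atxn7l1 from -0.282 to -0.139. The other probe sets of Dpyd, Tenm3 and Lbp lay at -2.033, -1.713 and -1.858. The calls also depended on brightness. With the genes ranked into 10 equal classes of mean intensity, the share in excess was 1.64% in class 1, the dimmest, 32.4% in class 7 and 11.6% in class 10, and the share short went from 0.911% in class 1 to 8.69% in class 9.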

How the data were processed

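Total RNA from cultured E16.5 hepatocytes was measured on 6 GeneChip Mouse Genome 430 2.0 arrays, which read mRNAs near their 3' ends. The authors deposited 1 linear intensity per probe set after Robust Multi-array Average (RMA; version not given in the sources used here), which includes quantile normalisation. No replicate of any genotype and hour was analysed here.

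Of 45037 probe sets, 34945 carried 1 gene symbol in the platform annotation, 932 several and 9160 none. Each gene was represented by its brightest probe set that names it alone, and 16451 of 18193 genes passed a filter (intensity above the 20th percentile on at least 1 of the 4 arrays under ActD). Median intensities lay between 69.7 and 72.4. Differences are log2 Cnot3KO minus control. limma 3.58.1 in R 4.3.3 fitted genotype with the hour as a block (4 arrays) and genotype by ActD (6 arrays), each with Benjamini-Hochberg adjustment, and was tested on simulated data. Alternatives covered the fold, filter, probe-set choice, centring and model. Locus lengths came from RefSeq (GRCm38.p6). Genes were named by rank within calls and lists, with exceptions stated. The members and gene lists were chosen with earlier results of these data known, and genes followed by the study are not independent evidence. Some genes are not reported here.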

Additional observations from a re-analysis of the deposited data

Results flagged for a closer look

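The genotype difference under ActD departed from that before it (limma, genotype by ActD over 6 arrays, adjusted p below 0.05) in 64 genes named above. Many of these genes were named for a large difference under ActD, and some also for a level near control at 0 h. Their passing is therefore partly built in by that choice. The values that follow are the change of the log2 difference, the mean of 6 and 12 h minus 0 h, so that a positive value is a shift towards Cnot3KO. Each rests on 1 residual degree of freedom, and 0 genes of the whole table passed with ribosomal centring (1709 and 267 at an unadjusted p below 0.05) or a linear term for the hour (2108 and 818).

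Among the decay factors and recruiters the change was 2.19 for Cnot4, 1.68 for Edc3, 1.79 for Papolg, 1.45 for Pum2 and 2.21 for Cpeb2. Among the mRNAs most in excess the change was 2.57 for Riok2, 2.39 for Ifrd1, 1.93 for Cdc73, 2.69 for Cwc22, 2.44 for Ythdc2, 2.50 for Phf3, 1.73 for Srfbp1, 1.99 for Terf1, 1.87 for Nup37, 2.12 for Mphosph8, 2.19 for Kif20b, 2.02 for Hic2, 2.07 for Pkp2 and 1.75 for Ttc30b. Among those in excess from a level near control at 0 h the change was 2.41 for Smad1, 2.64 for Dusp16, 2.35 for Zmym2, 2.44 for Kif2a, 2.25 for Prpf38b, 2.17 for Rnf2, 2.14 for Susd6, 2.32 for Frmd4b, 2.18 for Prps1l3 and 2.51 for Zfp958. Among transcription factors and signalling genes the change was 2.78 for Ahr, 2.01 for Foxa3, 1.70 for Gata6, 1.91 for Cebpg, 1.84 for Nr1h4, 1.76 for Smad2, 1.93 for Smad4, 1.36 for Bmp2, 1.76 for Bcl3, 1.53 for Nfkbiz, 1.41 for Bhlhe40, 1.57 for Nr1d2, 1.88 for Dusp14, 1.95 for Dusp4, 2.08 for Zfp644, 2.25 for Zfp655, 1.40 for Cxcl10 and 2.22 for Hsf2. Among survival, p53 and cell-cycle genes the change was 1.98 for Mcl1, 2.14 for Mdm2, 1.44 for Plk2, 1.45 for E2f7 and 1.58 for Ect2. Among the remaining genes in excess the change was 2.09 for Eif1a, 1.81 for Luc7l3, 1.73 for Mrpl1, 1.51 for Nags, 1.74 for Pfkfb3, 1.67 for G0s2 and 1.83 for Sqle. For G6pc and Npas2 the positive changes of 1.95 and 1.52 mark a shortfall at 0 h that narrowed or closed, and for B4galnt2 the change of -1.32 marks an excess that was lost. The short genes Tenm3 and H3f3b shifted away from Cnot3KO by changes of -1.54 and -1.74.

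Outside the genes compared, 7208 probe sets above the same filter carry no single gene symbol. Of these 273 (3.79%) were over 1.5-fold higher in Cnot3KO cells at both hours and 381 (5.29%) over 1.5-fold lower, against 16.9% and 5.14% of the named genes. The 2 sets are unlike, since each named gene was represented by its brightest probe set. Second probe sets of named genes gave 12.6% and 6.40%. The part of brightness in the gap was not tested.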

How the results depend on the processing

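The counts of genes in excess and short depended mostly on the fold and the hours required. A 2-fold rule at both hours left 1359 and 135, and 12 h alone gave 4525 and 2278. The mean of all probe sets gave 2043 and 642 of 16148 genes. Leaving out probe sets of shared sequence gave 2354 and 777 of 14817. In the limma fit with the hour as a block, a test against 1.5-fold left 1537 higher and 170 lower genes, and leaving the hour out left 2454 and 664. The lower genes numbered 1198 with ribosomal centring and 2791 with Gapdh centring, whose probe set is shared with pseudogene copies. The genotype-by-ActD fit of limma called 0 and 0 genes with a linear hour term or ribosomal centring, 301 higher with the mean of probe sets, and 3, 28 and 38 lower without a filter, without probe sets of shared sequence and with Gapdh centring. Without probe sets of shared sequence the mean difference was -0.079 for Bmf, -0.79 for Btg1, -0.39 for Klf5 and -0.24 for Psmc6, which were positive otherwise. Above 320 kb the share short was 12.3% with genes of any brightness, an alternative chosen after seeing the data. Of the list medians under all alternatives 363 moved by less than the SD between the 2 hours and 125 by more, and 16 in 8 lists changed sign, each in a list whose median was not past 1.2-fold in 1 direction at both hours. Choosing other probe sets lowered many counts of list members in excess, as given beside them, and the count over all genes as well. The cause of these changes was not tested. With 1 array for each genotype and hour no replicate could be left out, and intensities near the 20th percentile limit folds of dim genes.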
